A study of Mus musculus with 18 samples.

Results

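The small leucine-rich proteoglycans are represented here by 9 genes, chosen by symbol and matched to the Ensembl rows of a table of 38924 mouse genes: Dcn (decorin), Bgn (biglycan), Aspn (asporin), Lum (lumican), Fmod (fibromodulin), Prelp, Omd (osteomodulin), Ogn (osteoglycin) and Podn (podocan). All 9 passed the filter on low counts that left 16577 genes for testing. RNA was sequenced from fibroblasts of heart, kidney and tail that had been placed under the kidney capsule of a recipient mouse, and from cells of the same preparations that stayed in culture. Donors, labelled male, were 10-week-old mice of the genotype Rosa mT/mG on a C57BL/6 background, in which every cell carries a membrane-bound red fluorescent protein, and their fibroblasts had grown in culture for 10 days. Between 400000 and 500000 cells were grafted in gelatin foam into each syngeneic C57bl6/j recipient of 10 to 11 weeks, and CD45-;TdTomato+ cells were sorted after 3 days to give HFs (heart), KFs (kidney) and TFs (tail). Cells not used for grafting were replated at 50000 per well and cultured for 3 days, as the controls HFc (heart), KFc (kidney) and TFc (tail). No library was made from cells at the time of grafting. There were 3 libraries in each of these 6 groups, and neither the labels nor the methods say how many animals stood behind a library, so p-values measure the spread between these libraries. The design asks whether fibroblasts of different organs keep their own expression when moved to a common foreign site.

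Small leucine-rich proteoglycans are secreted matrix proteins whose compact core is built from tandem leucine-rich repeats and usually carries glycosaminoglycan chains. Decorin and biglycan (class I) carry chondroitin or dermatan sulfate, lumican, fibromodulin, PRELP and osteomodulin belong to class II, many of whose members carry keratan sulfate, osteoglycin belongs to class III, and podocan to class V. They bind fibrillar collagens and set the width and spacing of collagen fibrils, and several of them bind growth factors such as TGF-beta. Fibroblasts are their main source in connective tissue.

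Most of these genes lie beside another member of the family. Prelp (chromosome 1, 133910304 to 133921414, minus strand) and Fmod (134037254 to 134048277, plus strand) are separated by 116 kb without another protein-coding gene between them. Aspn (chromosome 13, 49544443 to 49567565), Omd (49582462 to 49592822) and Ogn (49608046 to 49624501) follow each other on the plus strand, all 3 inside the span of Cenpp, a gene on the opposite strand. Dcn (chromosome 10, 97479609 to 97518143) and Lum (97565128 to 97572703) lie 47.0 kb apart on the plus strand. Podn lies on chromosome 4 (108014791 to 108096445, minus strand), where it overlaps Scp2 on the same strand, and Bgn on the X chromosome (73483602 to 73495933, plus strand). Prelp also overlaps Gm15851, annotated as antisense on the other strand. Positions are those of GENCODE M21 on GRCm38.

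Promoter sequences from RefSeq (GRCm38.p6) matched 7 of the 9 members, all but Dcn and Lum. They are shown for 2 pairs of members from a shared stretch of chromosome that were called in the same direction in at least 1 organ, Prelp and Fmod, which are adjacent, and Aspn and Ogn, between which Omd lies, as the 250 bases before the start annotated in RefSeq, 5′ to 3′ on the strand of the gene. Distances to motifs are counted from that RefSeq start. It differs from the GENCODE start given above for Ogn and for Prelp, whose window reaches into the GENCODE span. Capitals mark matches to the TATA box (TATAAA), the CCAAT box, the GC box (GGGCGG), the AP-1 motif (TGANTCA) or the TEAD motif (GGAATG), all searched on both strands.
Prelp, chr1:133921402-133921651, minus strand: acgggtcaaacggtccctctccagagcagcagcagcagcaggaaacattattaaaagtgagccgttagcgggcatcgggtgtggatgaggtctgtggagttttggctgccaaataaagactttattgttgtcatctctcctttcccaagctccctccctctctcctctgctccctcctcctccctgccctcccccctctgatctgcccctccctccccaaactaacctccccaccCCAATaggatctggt
Fmod, chr1:134037004-134037253, plus strand: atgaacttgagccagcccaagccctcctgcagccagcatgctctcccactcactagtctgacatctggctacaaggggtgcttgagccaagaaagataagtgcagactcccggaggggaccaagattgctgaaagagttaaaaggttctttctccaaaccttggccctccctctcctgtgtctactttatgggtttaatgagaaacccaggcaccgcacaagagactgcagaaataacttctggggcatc
Aspn, chr13:49544193-49544442, plus strand: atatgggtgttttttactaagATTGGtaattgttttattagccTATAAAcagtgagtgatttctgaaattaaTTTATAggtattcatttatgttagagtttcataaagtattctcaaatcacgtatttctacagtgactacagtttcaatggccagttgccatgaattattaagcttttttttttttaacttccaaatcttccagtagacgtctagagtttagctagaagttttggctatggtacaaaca
Ogn, chr13:49607765-49608014, plus strand: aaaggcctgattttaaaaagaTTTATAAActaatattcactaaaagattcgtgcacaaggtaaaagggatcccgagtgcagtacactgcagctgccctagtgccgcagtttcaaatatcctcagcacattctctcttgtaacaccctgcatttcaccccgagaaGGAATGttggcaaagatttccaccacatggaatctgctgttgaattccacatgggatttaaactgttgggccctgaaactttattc

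The windows of Aspn and Ogn were poor in G and C (30% and 42%), against 55.6% in Prelp and 51.2% in Fmod. Both Aspn and Ogn held TATAAA on each strand, at 207 and 178 bases before the start in Aspn and, as overlapping matches, at 229 and 227 bases in Ogn. TATAAA was present in 12.4% of all 32851 promoter windows of this length. GGAATG stood 86 bases before the start of Ogn and in 12.6% of all windows, and CCAAT 15 bases before the start of Prelp, 229 bases before that of Aspn and in 33.8% of all windows. Of the motifs searched, none was found in the window of Fmod, and neither TGANTCA (6.7% of all windows) nor GGGCGG (32.7%) was found in the 4 windows shown. These matches describe letters only.

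Library totals ranged from 17927838 to 32245168 counts, and 3 counts, the level under which a gene was treated as not detectable, corresponded to 0.089 to 0.18 CPM (counts scaled for depth with edgeR's TMM library sizes). Floors and intervals cover counting error only. All 7 fibroblast markers (collagen I and III genes, Pdgfra, Pdgfrb, Thy1 and Vim) exceeded that floor in every library. Markers of kidney proximal tubule, the epithelium beneath the graft, summed to 116 to 1220 CPM in HFs, 57.6 to 125 in KFs and 124 to 320 in TFs, against 19.9 to 20.2 in HFc, 96.1 to 102 in KFc and 14.0 to 16.4 in TFc. 10, 9 and 10 of those 10 markers were called higher in HFs, KFs and TFs than in the matching cultures, while Kap, Slc27a2 and Pck1 had no count in any cultured library. Of all genes tested, 18.3%, 14.7% and 11% were called higher in these comparisons and 9.33%, 7.99% and 5.53% lower, shares that apply to each marker list. Leukocyte markers summed to 9.46 to 79.1 CPM in the transplanted and 45.2 to 218 CPM in the cultured libraries, and 5 of 7 were called lower in KFs and 4 in TFs. Of 5 endothelial markers, 4, 3 and 2 were called higher in HFs, KFs and TFs, with 1 lower in KFs, and their sums were 55.9 to 63.3, 23.5 to 39.6 and 40.2 to 41.9 CPM, against 39.2 to 42.3, 30.7 to 34 and 35.4 to 40.3 CPM in HFc, KFc and TFc. The 4 mural cell markers summed to 1169 to 1192 CPM in KFc and 78.2 to 227 CPM in KFs, where 2 were called lower, and to 146 to 174 CPM in HFc, 183 to 208 in HFs, 71.8 to 73.9 in TFc and 55.9 to 70.4 in TFs. KFs replicate 3, whose column in the table is named in another form than the other 17, stood apart. Its Y-linked genes summed to 0.722 CPM against 175 to 230 CPM in the other 17 libraries, and its Xist level was 1492 CPM against at most 0.404 CPM. Its fibroblast markers summed to 19678 CPM against 71403 and 94401 CPM in the other 2 KFs libraries and 15267 to 16189 CPM in KFc. Its epithelial markers summed to 137 CPM against 20.6 and 24.8 in those KFs libraries and 23.8 to 31.9 in KFc. The Xist and Y-linked values go against the label of male donors. Fold changes of the members that involve KFs are given with and without it, as are the counts called in kidney for the lists of related genes where they changed. Among the markers, 8 in place of 9 tubule genes were called higher in KFs without it, and no endothelial gene was called lower. Of 12 other genes named below with a kidney call, all 12 kept it without this library, and their log2 fold changes moved by 0.49 or less.

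Transplantation was followed by higher decorin and lumican RNA and lower Prelp RNA in fibroblasts of all 3 organs, while biglycan was not called in any of them. The call of Prelp in tail was lost whenever any 1 tail library was left out, and kept without KFs replicate 3 (edgeR adjusted p = 0.00460). In heart fibroblasts 5 members were called higher (Dcn, Lum, Aspn, Podn and Ogn) and 1 lower (Prelp), where 18.3% of all genes tested were called higher and 9.33% lower. In kidney fibroblasts 3 were called higher (Dcn, Lum and Ogn) and 2 lower (Prelp and Fmod), against 14.7% and 7.99% of all genes. In tail fibroblasts 3 were called higher (Dcn, Lum and Podn) and 2 lower (Fmod and Prelp), against 11% and 5.53%. The median log2 fold change over the 9 members was 2.04, -0.26 and 1.32 in heart, kidney and tail, and over all genes tested 0.05, 0.09 and 0.00. The kidney median of the members turned to 0.07 without KFs replicate 3. To be called, a gene needed an adjusted p under 0.05 and a fold change of more than 1 on the log2 scale, up or down, in edgeR's quasi-likelihood test, adjusted by Benjamini-Hochberg over all genes tested. In bulk RNA, more cells with a transcript and more RNA per cell cannot be told apart, and the part of RNA from tubule, leukocytes, endothelium or mural cells in these differences was not tested.

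**Figure D1:**
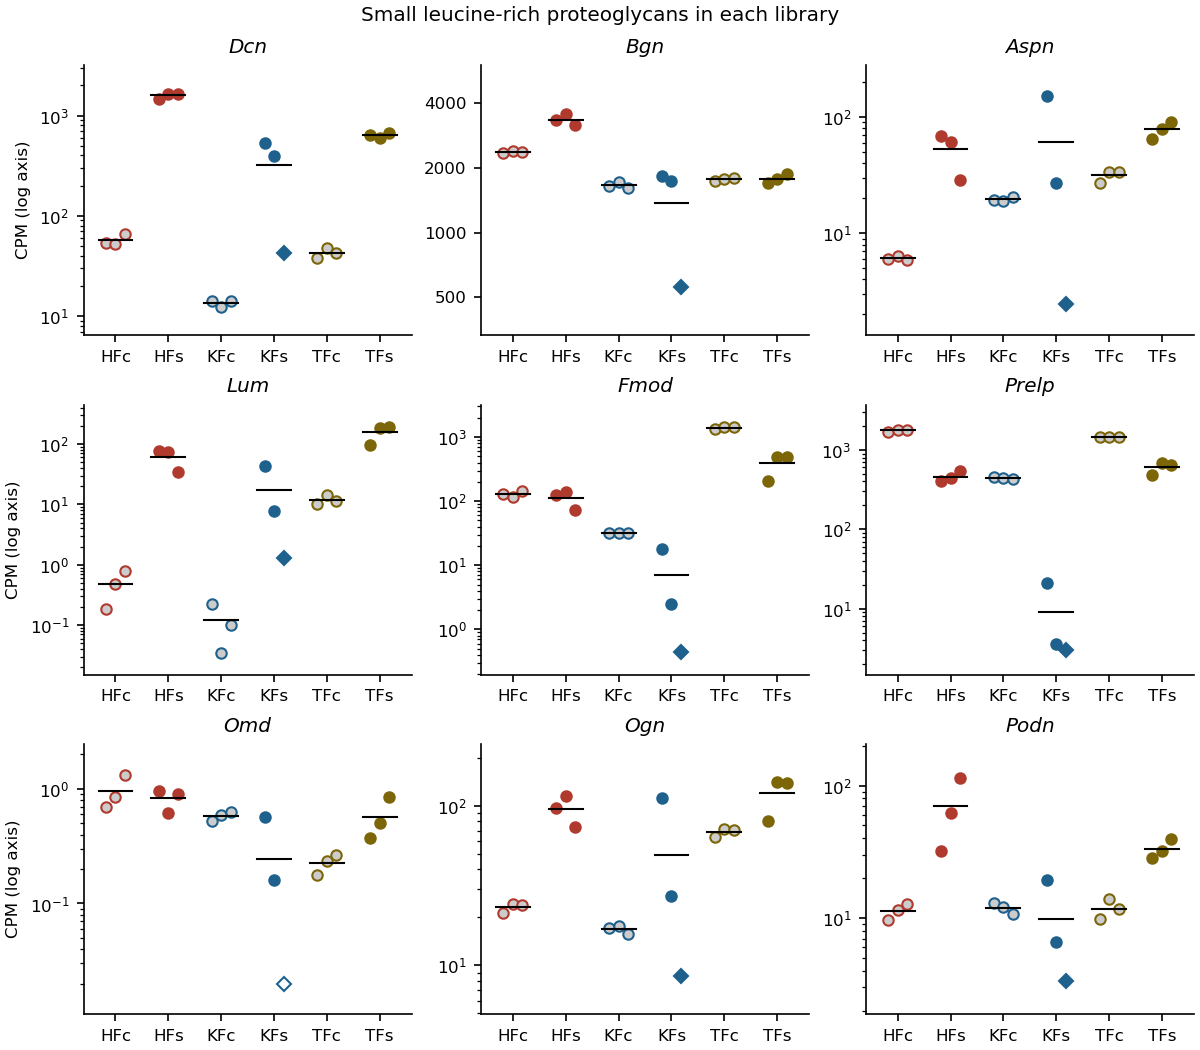
Level of each of the 9 members in every library, in CPM on log axes, by group. Grey points are cultured and filled points transplanted libraries, the diamond is KFs replicate 3 (open at the lower edge for Omd, where it had no count), and bars are means of 3 libraries. Dcn and Lum lie higher in every transplanted group than in its culture, and Prelp lies lower.

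Dcn encodes decorin, which carries a single glycosaminoglycan chain and binds collagen I fibrils and TGF-beta. Its level was 53.1, 52.1 and 66.3 CPM in the 3 HFc libraries and 1470, 1651 and 1658 CPM in HFs. It was 14.1, 12.4 and 14.1 CPM in KFc and 528, 394 and 42.8 CPM in KFs. It was 37.8, 47.9 and 42.6 CPM in TFc and 638, 594 and 676 CPM in TFs. In each organ the lowest transplanted library exceeded the highest cultured one, although KFs replicate 3 lay far below the other KFs libraries and below the HFc libraries. The log2 fold change was 4.80 ± 0.58 (SE, n = 3 per group, edgeR adjusted p = 5.89e-06) in heart, 4.57 ± 0.58 (adjusted p = 1.35e-05) in kidney and 3.90 ± 0.56 (adjusted p = 7.23e-05) in tail. Here and for other fold changes ± gives the SE, which rests on a spread shared by all libraries in the fit. Without KFs replicate 3 the Dcn values were 4.82 ± 0.14 in heart, 5.05 ± 0.15 in kidney and 3.88 ± 0.14 in tail.

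Bgn encodes biglycan, the closest relative of decorin, which also acts as a ligand of Toll-like receptors when it is released from the matrix. It had 2338, 2397 and 2366 CPM in HFc and 3321, 3572 and 3170 CPM in HFs, 2 ranges that did not overlap. KFc had 1649, 1715 and 1604 CPM and KFs 1839, 1737 and 560 CPM. TFc had 1737, 1777 and 1798 CPM and TFs 1693, 1766 and 1871 CPM. The groups overlapped in kidney and tail. The log2 fold change was 0.50 ± 0.28 in heart (edgeR adjusted p = 0.131), -0.26 ± 0.27 in kidney (adjusted p = 0.447) and 0.01 ± 0.27 in tail (adjusted p = 0.992). Leaving out KFs replicate 3, the heart value was 0.52 ± 0.07 with an adjusted p of 5.31e-06, still under the fold-change limit, and the kidney value turned to 0.07 ± 0.07.

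Aspn encodes asporin, which binds collagen and TGF-beta and mostly lacks a glycosaminoglycan chain. It had 6.01, 6.33 and 5.95 CPM in HFc and 68.5, 61.1 and 28.9 CPM in HFs, a rise of 3.11 ± 0.84 on the log2 scale (edgeR adjusted p = 0.00543). KFc had 19.5, 19.0 and 20.3 CPM, and KFs had 152, 27.3 and 2.45 CPM, with libraries on either side of the cultured range. Aspn had the widest spread of the 8 members with counts in every KFs library, 62.1-fold between the highest and the lowest. TFc had 27.1, 33.6 and 33.8 CPM and TFs 65.4, 79.6 and 90.8 CPM, which did not overlap. Neither the kidney value of 1.62 ± 0.78 (edgeR adjusted p = 0.0977) nor the tail value of 1.32 ± 0.77 (adjusted p = 0.188) was called. Without KFs replicate 3 both were, at 2.15 ± 0.46 (adjusted p = 0.000962) and 1.30 ± 0.42 (adjusted p = 0.0170), and without KFs replicate 1 the kidney value turned to -0.38.

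Lum encodes lumican, a keratan sulfate proteoglycan best known for the even fibril spacing of the transparent cornea. HFc had 0.182, 0.474 and 0.786 CPM (5, 14 and 16 counts) and HFs 75.6, 73.8 and 34.1 CPM. KFc had 0.224, 0.0349 and 0.0997 CPM (6, 1 and 3 counts) and KFs 42.6, 7.66 and 1.28 CPM. TFc had 10.2, 14.2 and 11.4 CPM and TFs 95.1, 182 and 194 CPM. Lumican RNA was thus close to the detection floor in cultured heart and kidney fibroblasts and well above it in cultured tail fibroblasts, and every transplanted library lay above its cultures. It rose by 7.04 ± 1.03 on the log2 scale in heart (edgeR adjusted p = 3.33e-05), 7.13 ± 1.21 in kidney (adjusted p = 0.000184) and 3.72 ± 0.77 in tail (adjusted p = 0.00144). The kidney fold rests on 10 counts in KFc in all. With the mean of KFs held fixed, their exact 95% Poisson interval put it between 79.9 and 307 times that of KFc. This interval leaves out the spread of the KFs libraries, which ran from 1.28 to 42.6 CPM.

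Fmod encodes fibromodulin, which binds collagen I beside lumican and is abundant in tendon. HFc had 128, 116 and 143 CPM and HFs 126, 141 and 72.6 CPM, which overlapped. KFc had 31.4, 32.3 and 32.0 CPM and KFs 18, 2.50 and 0.441 CPM. TFc had 1328, 1418 and 1409 CPM and TFs 204, 482 and 487 CPM. All transplanted kidney and tail libraries lay below their cultures. Fmod fell by 2.21 ± 0.70 on the log2 scale in kidney (edgeR adjusted p = 0.0165) and by 1.83 ± 0.66 in tail (adjusted p = 0.0390), and its value in heart was -0.19 ± 0.64 (adjusted p = 0.820). With only KFs and KFc in the fit, the kidney value of -2.18 was no longer called (edgeR adjusted p = 0.164), and it was not called without KFs replicate 2 (-1.83, adjusted p = 0.0539). The tail call was lost with the replicate block (-1.77, adjusted p = 0.0584) and whenever any 1 of the 6 tail libraries was left out (-2.02 to -1.52). DESeq2 gave no adjusted p for Fmod there. The tail call was kept without KFs replicate 3 (-1.84 ± 0.42, edgeR adjusted p = 0.00218) and with only TFs and TFc in the fit (-1.79, adjusted p = 0.000888).

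Prelp encodes a class II member with a basic, heparin-binding end in place of a chain-rich one, which links basement membranes to the collagen beneath. HFc had 1701, 1793 and 1788 CPM and HFs 409, 439 and 536 CPM. KFc had 455, 442 and 427 CPM and KFs 20.9, 3.62 and 3.05 CPM. TFc had 1434, 1468 and 1441 CPM and TFs 482, 687 and 636 CPM. The groups did not overlap in any organ, and all 3 KFs libraries, replicate 3 included, lay far below the lowest KFc library. Prelp fell by 1.93 ± 0.46 on the log2 scale in heart (edgeR adjusted p = 0.00225), by 5.59 ± 0.55 in kidney (adjusted p = 1.14e-06) and by 1.27 ± 0.45 in tail (adjusted p = 0.0373). The kidney value was -5.23 ± 0.48 without KFs replicate 3. The tail call was lost with the replicate block (-1.25, edgeR adjusted p = 0.0510), with DESeq2 (-1.23, adjusted p = 0.0556) and whenever any 1 of the 6 tail libraries was left out (-1.38 to -1.13). It was kept without KFs replicate 3 (-1.28 ± 0.33, edgeR adjusted p = 0.00460) and with only TFs and TFc in the fit (-1.23, adjusted p = 6.48e-05).

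Omd encodes osteomodulin, a keratan sulfate proteoglycan of mineralised tissue, and was near the limit of detection throughout. It had 19, 25 and 27 counts in the HFc libraries, 16, 14 and 24 in HFs, 14, 17 and 19 in KFc, 14, 5 and 0 in KFs, 6 in each TFc library and 7, 11 and 20 in TFs. The highest level of any library was 1.33 CPM, in HFc, and the 0 of KFs replicate 3 allowed up to 0.12 CPM. The log2 fold changes of -0.20 ± 0.68 in heart, -1.26 ± 0.73 in kidney and 1.35 ± 0.74 in tail had edgeR adjusted p of 0.822, 0.163 and 0.161. None was called, and without KFs replicate 1 the kidney value was (-2.71, adjusted p = 0.0107).

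Ogn encodes osteoglycin, also called mimecan, a class III member found in most connective tissues. HFc had 21.2, 24.4 and 24.0 CPM and HFs 97.8, 116 and 73.6 CPM. KFc had 17.2, 17.6 and 15.8 CPM and KFs 112, 27.1 and 8.54 CPM. TFc had 64.2, 71.8 and 71.1 CPM and TFs 80.6, 141 and 140 CPM. The groups lay apart in heart and tail, and in kidney replicate 3 lay below the cultured range and the others above it. Ogn rose by 2.04 ± 0.57 on the log2 scale in heart (edgeR adjusted p = 0.00661) and by 1.55 ± 0.57 in kidney (adjusted p = 0.0343), and its value in tail was 0.81 ± 0.55 (adjusted p = 0.262). The kidney call was lost without any 1 KFc library (1.50 to 1.58) or KFs replicate 1 (0.09, adjusted p = 0.853), with the replicate block (1.39, edgeR adjusted p = 0.0733) and with only KFs and KFc in the fit (1.56, adjusted p = 0.193), and without KFs replicate 3 the value was 2.0 ± 0.39.

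Podn encodes podocan, first described in the glomerulus of the kidney and also made by smooth muscle. HFc had 9.65, 11.5 and 12.8 CPM and HFs 32.1, 62.6 and 115 CPM. KFc had 13, 12.2 and 10.8 CPM and KFs 19.5, 6.63 and 3.37 CPM. TFc had 9.76, 13.8 and 11.8 CPM and TFs 28.4, 32.0 and 39.3 CPM. The 3 cultured groups overlapped, while transplanted heart and tail libraries lay above their cultures and the KFs libraries on both sides of theirs. Podn rose by 2.63 ± 0.50 on the log2 scale in heart (edgeR adjusted p = 0.000345) and by 1.50 ± 0.48 in tail (adjusted p = 0.0225), and its value in kidney was -0.29 ± 0.48 (adjusted p = 0.645). Without KFs replicate 1 the kidney value was -1.25 and was called (edgeR adjusted p = 0.0222). The tail call was lost without TFc replicate 1, TFc replicate 3 or TFs replicate 3 (1.37, 1.48 and 1.36, adjusted p = 0.0802, 0.0653 and 0.0678). It was kept without KFs replicate 3 (1.48 ± 0.38, edgeR adjusted p = 0.00487) and with only TFs and TFc in the fit (1.54, adjusted p = 8.43e-05). Within HFs the highest library exceeded the lowest 3.57 times, a wider spread than that of any other member in that group.

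**Figure D2:**
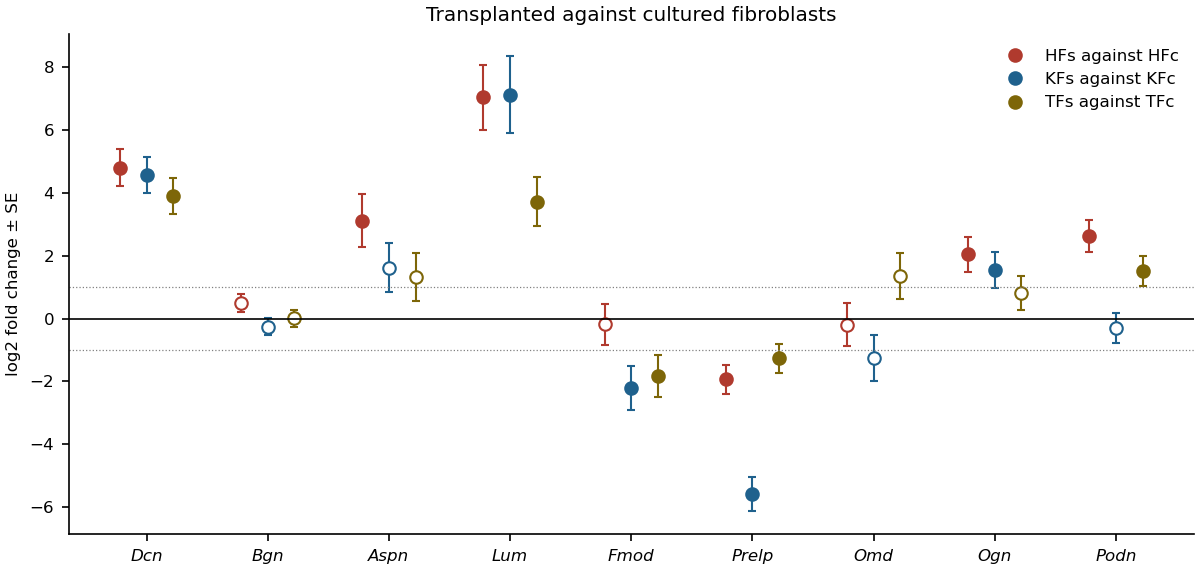
Log2 fold change of each member between transplanted and cultured fibroblasts of heart, kidney and tail (3 libraries per group). SE bars rest on the spread shared by all 18 libraries in the fit. Filled points passed the threshold of adjusted p and fold change, open points did not, and dotted lines mark a log2 fold change of 1 and -1. Dcn and Lum are filled above the upper line and Prelp below the lower line in all 3 organs.

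The 3 KFs libraries differed from each other in every member with counts in all of them, from 3.29-fold for Bgn to 62.1-fold for Aspn, against at most 3.57-fold in HFs and 2.38-fold in TFs. Replicate 1 was the highest and replicate 3 the lowest KFs library for each of the 9 members. As a log2 ratio to the mean of KFc, Dcn was 5.28, 4.86 and 1.66 in replicates 1, 2 and 3, Lum 8.48, 6.00 and 3.42, and Prelp -4.40, -6.93 and -7.18. Dcn and Lum were therefore above and Prelp below the cultured mean in all 3 libraries, whereas Aspn (2.95, 0.48 and -3.00), Ogn (2.73, 0.69 and -0.98), Podn (0.70, -0.85 and -1.83) and Bgn (0.15, 0.07 and -1.57) had libraries on both sides. Without replicate 3, 4 members were called higher (Dcn, Aspn, Lum and Ogn) and 2 lower (Fmod and Prelp), where 23.2% of all genes were called in either direction, against 22.6% with it. The fitted value was then 7.64 ± 0.88 for Lum, -1.71 ± 0.53 for Fmod, -0.74 ± 0.58 for Omd and 0.07 ± 0.43 for Podn. Whether the other cell types whose markers moved with replicate 3 had a part in this was not tested.

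**Figure D3:**
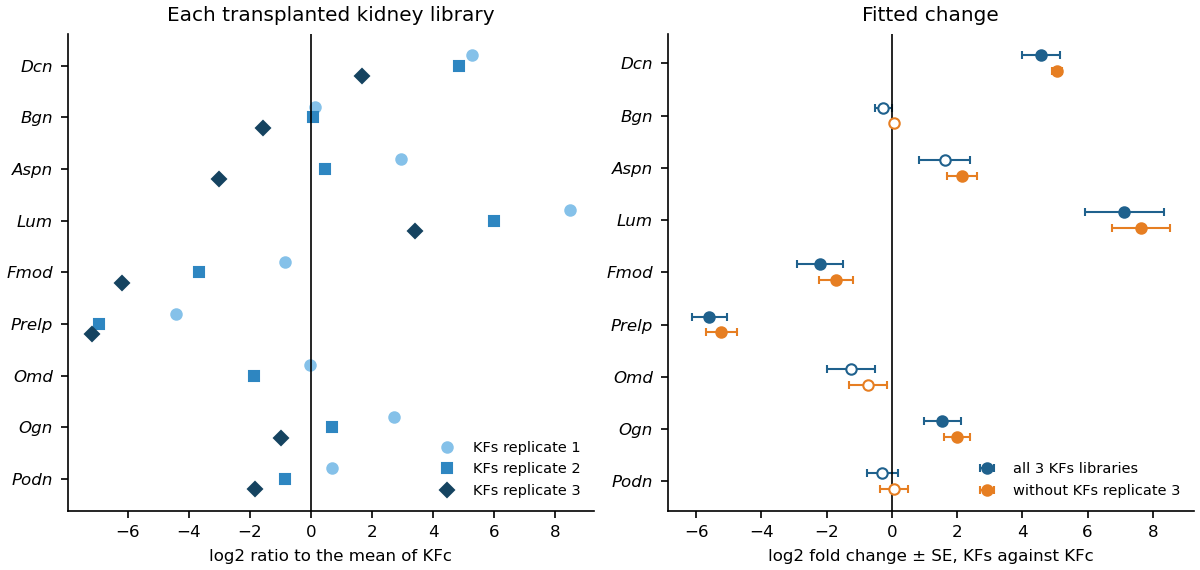
Transplanted kidney fibroblasts: log2 ratio of each KFs library to the mean of KFc (left; Omd had no count in replicate 3) and the fitted log2 fold change with SE with all 3 KFs libraries or without replicate 3 (right; filled points passed the threshold). Replicate 3 is the leftmost point for every member drawn.

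The members also differed between organs in the cultured controls, which were kept in parallel with the grafts. Cultured tail fibroblasts had more Fmod (1385 ± 49.6 CPM, SD, n = 3) than HFc (129 ± 13.6) and KFc (31.9 ± 0.432), and more Lum (11.9 ± 2.02 CPM) than HFc (0.481 ± 0.302) and KFc (0.119 ± 0.0960). Against TFc, 1 member was called higher in HFc (Omd) and 4 lower (Lum, Fmod, Aspn and Ogn), where 20.9% of all genes tested were called higher and 21% lower at an adjusted p under 0.05. In KFc none was called higher and 5 lower than in TFc (Fmod, Lum, Ogn, Prelp and Dcn), against 17.8% and 18.5% of all genes. Fmod differed by -3.43 ± 0.70 on the log2 scale between HFc and TFc (edgeR adjusted p = 0.00103) and by -5.44 ± 0.77 between KFc and TFc (adjusted p = 6.33e-05). Lum differed by -4.69 ± 1.01 (adjusted p = 0.00157) and -6.61 ± 1.22 (adjusted p = 0.000618). HFc exceeded KFc in 3 members, Dcn (2.08 ± 0.53, edgeR adjusted p = 0.00776), Fmod (2.01 ± 0.67, adjusted p = 0.0335) and Prelp (2.0 ± 0.46, adjusted p = 0.00409), with none lower, against 15.1% of all genes higher and 14% lower. The Omd call between HFc and TFc rests on 19 to 27 against 6 counts per library and was lost without a filter on low counts (edgeR adjusted p = 0.0552). Leaving out any 1 cultured heart or tail library reduced the 5 calls between HFc and TFc to 2 or 3, with Lum and Fmod kept throughout. The share of all genes called there fell from 41.9% to between 34.3% and 35.1%. Leaving out any 1 cultured heart or kidney library ended the Fmod call between HFc and KFc (1.93 to 2.09). The Dcn call between KFc and TFc was lost without any 1 of these libraries except TFc replicate 1 (-1.69 to -1.54). Both calls were kept without KFs replicate 3 and with only the 2 groups in the fit. For Fmod the values were 1.97 ± 0.44 (edgeR adjusted p = 0.00204) and 1.96 (adjusted p = 6.17e-15). For Dcn they were -1.63 ± 0.13 (adjusted p = 5.84e-08) and -1.62 (adjusted p = 1.3e-11).

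Among transplanted cells, decorin was highest in HFs (1593 ± 107 CPM, SD, n = 3), followed by TFs (636 ± 41.0) and KFs (322 ± 250), and the 3 ranges did not overlap. HFs exceeded TFs in 1 member, Bgn (0.92 ± 0.28, edgeR adjusted p = 0.0253), with none lower, where 10.3% of all genes tested were called higher and 12.7% lower. No member was called higher in KFs than in TFs and 4 were lower, against 15.3% and 13.8% of all genes. These were Prelp (-6.04 ± 0.56, edgeR adjusted p = 1.98e-06), Fmod (-5.82 ± 0.80, adjusted p = 7.72e-05), Lum (-3.20 ± 0.75, adjusted p = 0.00489) and Podn (-1.76 ± 0.49, adjusted p = 0.0132). HFs exceeded KFs in 5 members, against 14.2% of all genes, and none was lower, against 19%. These were Prelp (5.66 ± 0.55, edgeR adjusted p = 3.74e-06), Fmod (4.03 ± 0.74, adjusted p = 0.000803), Podn (2.83 ± 0.50, adjusted p = 0.000574), Dcn (2.31 ± 0.52, adjusted p = 0.00337) and Bgn (1.28 ± 0.28, adjusted p = 0.00260). When KFs replicate 3 was left out, the members called between HFs and KFs were the same 5, at 5.27 ± 0.48, 3.51 ± 0.56, 2.45 ± 0.45, 1.8 ± 0.14 and 0.92 ± 0.08. Between KFs and TFs the values were then -5.64 ± 0.49 for Prelp, -5.29 ± 0.61 for Fmod, -2.66 ± 0.54 for Lum and -1.36 ± 0.44 for Podn, all called, and Dcn was called as well, at -0.46 ± 0.14 (edgeR adjusted p = 0.0145) in place of -0.98.

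These organ counts depended on the KFs libraries, which enter the common estimate of spread even where they are not compared. Without KFs replicate 3, 7 members in place of 5 were called between HFc and TFc, 6 in place of 5 between KFc and TFc, 5 in place of 3 between HFc and KFc, and 5 in place of 1 between HFs and TFs. The share of all genes called also rose, from 41.9% to 48.6%, from 36.4% to 43.8%, from 29.2% to 36.3% and from 23.1% to 31.0% in these 4 comparisons. The last were Dcn (1.34 ± 0.12, edgeR adjusted p = 4.14e-07), Bgn and Podn, higher in HFs, and Fmod and Lum, lower. With only the 2 groups in the fit, 4 members were called between HFs and TFs, and 1, Prelp, between HFs and KFs and between KFs and TFs, where 24.9%, 5.75% and 7.47% of all genes were called. Without KFs replicate 1, which was the highest for each member, 9 members were called between HFs and KFs and 8 between KFs and TFs (35.7% and 31.8% of all genes), and the call of Podn between KFs and TFs was lost without KFs replicate 2 (-1.54, edgeR adjusted p = 0.0566). Between HFs and TFs no member was called by edgeR without HFs replicate 2 or without any 1 of the TFs libraries, and without HFs replicate 1 Podn (1.45, adjusted p = 0.0417) was called in place of Bgn.

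The level over the 6 groups thus had a different order for each member. Dcn ran from HFs over TFs, KFs, HFc and TFc to KFc, and of these neighbours only KFs and HFc overlapped. Fmod ran from TFc over TFs, HFc, HFs and KFc to KFs, with overlap only between HFc and HFs. Prelp ran from HFc over TFc, TFs, HFs and KFc to KFs, with overlap between TFs and HFs and between HFs and KFc. Bgn ran from HFs over HFc, TFs, TFc and KFc to KFs, with overlap between TFs and TFc and between KFc and KFs. Lum ran from TFs over HFs, KFs, TFc and HFc to KFc, with overlap between HFs and KFs, KFs and TFc, and HFc and KFc. For Aspn and Ogn, TFs had the highest mean, and for Podn, HFs, each with overlap with the next group. For Omd all neighbouring groups overlapped.

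The change after transplantation was compared between organs as an interaction contrast, and 3 differences passed. The fall of Prelp was larger in kidney than in tail, by -4.33 ± 0.67 on the log2 scale (edgeR adjusted p = 0.000832), and larger in kidney than in heart, with a difference of 3.66 ± 0.66 (heart minus kidney, adjusted p = 0.000991). The change of Podn was higher in heart than in kidney by 2.92 ± 0.68 (adjusted p = 0.00557). For heart against tail no member was called higher or lower by edgeR, where 10.1% and 12.7% of all genes tested were, and 1 member (Lum, 3.32 ± 1.26, adjusted p = 0.0690) had an unadjusted p under 0.05. For kidney against tail none was called higher and 1 lower, against 4.99% and 6.07% of all genes. For heart against kidney 2 were called higher and none lower, against 10.7% and 15.5%. In these 2 comparisons the numbers called were near the shares of all genes called in either direction, 11.1% and 26.2%.

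For heart against tail the result changed with the libraries in the fit, although no kidney library is compared. Without KFs replicate 3, 5 members were called, all with a higher value in heart: Lum (3.36 ± 0.90, edgeR adjusted p = 0.00941), Aspn (1.82 ± 0.61, adjusted p = 0.0323), Fmod (1.67 ± 0.59, adjusted p = 0.0411), Dcn (0.94 ± 0.17, adjusted p = 0.000687) and Bgn (0.53 ± 0.09, adjusted p = 0.000495). In that fit 32.3% of all genes were called, against 22.8% with all libraries. With only the 4 heart and tail groups in the fit 7 members and 35.5% of all genes were called, and with DESeq2 1 member, Lum, and 27.5% of all genes. Without KFs replicate 3, 3 members were called for kidney against tail, Prelp (-3.95 ± 0.53), Dcn (1.17 ± 0.18, edgeR adjusted p = 0.000369) and Lum (3.93 ± 1.21, adjusted p = 0.0302), and 3 for heart against kidney, Prelp (3.32 ± 0.53), Podn (2.58 ± 0.59) and Bgn (0.45 ± 0.10), where 21.4% and 35.2% of all genes were called. Without KFs replicate 1, 4 and 5 members were called in these 2 comparisons (14.7% and 29.3% of all genes), and DESeq2 called 3 for kidney against tail (16.1%).

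Levels of different members can be compared only per length, for which CPM was divided by the summed exon length of each gene. Prelp and Bgn were the 2 most abundant members in HFc, with 51.9% and 41.3% of this sum, and in KFc, with 28.8% and 64.1%. In TFc, Fmod had 36.0%, Prelp 34.4% and Bgn 24.9%. After transplantation Dcn took 25.1% in HFs (23.9% to 26.9% over the 3 libraries), 13.9% in KFs (6.93% to 17.7%) and 13.2% in TFs (11.3% to 15.9%), from at most 1.19% in any cultured library. Prelp had 11.8% in HFs, 0.715% in KFs and 19.8% in TFs. Bgn had the highest share in all 3 transplanted groups, with 50.6%, 72.7% and 35.2%, as it had in KFc but not in HFc or TFc. The annotation gives Dcn and Bgn long summed exons (5838 and 6099 bases) and shorter longest coding transcripts (1758 and 2419 bases), and with the latter, an alternative chosen after seeing the data, Dcn had 35.3% in HFs, 19.1% in KFs and 23.6% in TFs. The order in culture depended on this length, since with it Bgn led in HFc (62.9%, Prelp 31.3%) and in TFc (44.4%, Fmod 26.9%, Prelp 24.3%) as well as in KFc (81.1%). Together the members held 0.404% to 0.417% of all counts in HFc and 0.506% to 0.555% in HFs, 0.214% to 0.227% in KFc and 0.0715% to 0.268% in KFs, and 0.486% to 0.512% in TFc and 0.343% to 0.446% in TFs.

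**Figure D4:**
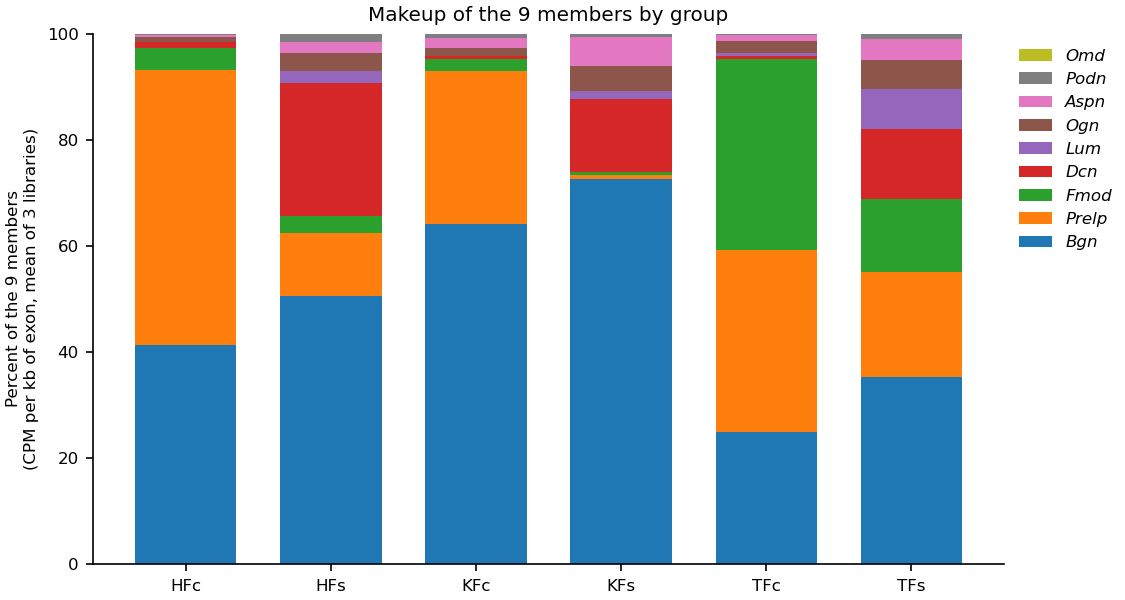
Share of each member in the sum of the 9, per kb of exon, as means of 3 libraries in each group. The share of Dcn grows from about 1% or less in each culture to 25.1%, 13.9% and 13.2% in HFs, KFs and TFs, and that of Prelp shrinks in all 3 organs.

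Neighbouring genes of the family can be read together. On chromosome 10, Dcn and Lum rose in all 3 organs. Beyond Lum lie Kera (keratocan, a cornea proteoglycan) and Epyc (epiphycan, of growth-plate cartilage), which were near the detection floor in culture. Kera had at most 2 counts in a TFc library and 4.13 CPM in TFs, at least 36.6-fold higher than the floor (edgeR adjusted p = 0.000750), and no count in any KFs or KFc library. Epyc rose in heart, from at most 2 counts to 0.682 CPM, at least 5.71-fold over the floor (adjusted p = 0.0139). On chromosome 1, Prelp fell in all 3 organs and Fmod in kidney and tail, both with the tail call lost on leaving out any 1 tail library. Both tail calls were kept without KFs replicate 3. Optc (opticin), 2.3 kb from Prelp, was not called, with log2 fold changes of -0.28 ± 0.85, -0.66 ± 0.83 and 1.35 ± 0.81 in heart, kidney and tail and at most 1.45 CPM in a group. On chromosome 13, Ecm2, which lies 11.7 kb before Aspn, rose by 1.66 ± 0.49 on the log2 scale in heart (edgeR adjusted p = 0.00938), 1.38 ± 0.52 in kidney (adjusted p = 0.0378) and 2.53 ± 0.50 in tail (adjusted p = 0.00108). Cenpp, whose span holds these genes on the other strand, was not called in any organ (-0.75, 0.75 and 0.53), nor was Scp2, which overlaps Podn (0.20, -0.41 and -0.10). The methods state counting by strand, so reads of Podn and Scp2 on the same strand rest on the aligner's assignment to transcripts.

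**Figure D5:**
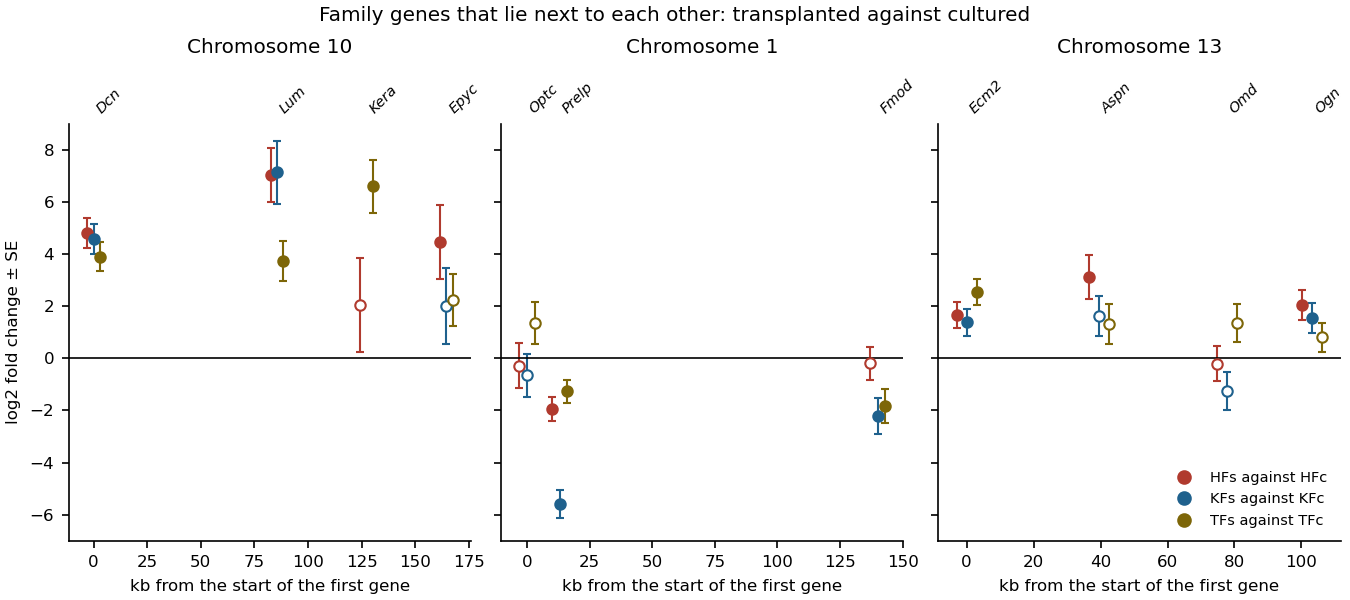
Log2 fold change with SE between transplanted and cultured fibroblasts for family genes in 3 groups of neighbours, by distance in kb from the start of the first gene. Points of 1 gene are shifted by 3 kb so that the organs can be told apart, filled points passed the threshold, and Kera is not drawn for kidney, where it had no count. All drawn values are above 0 on chromosome 10, and Prelp and Fmod are below 0 on chromosome 1.

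Among the other 9 genes of the family, of which 8 were tested, 3 were called higher in heart (Podnl1, Epyc and Ecm2), 2 in kidney (Podnl1 and Ecm2) and 2 in tail (Kera and Ecm2), with none lower, where 18.3%, 14.7% and 11% of all genes tested were called higher in these organs and 9.33%, 7.99% and 5.53% lower. Podnl1, the closest relative of podocan, rose by 2.92 ± 0.43 on the log2 scale in heart (edgeR adjusted p = 4.12e-05) and by 3.85 ± 0.45 in kidney (adjusted p = 5.37e-06), where Podn itself was not called. The median of these genes was 1.36, 1.11 and 1.07 in heart, kidney and tail, against 0.05, 0.09 and 0.00 over all genes tested. The kidney median was 0.53 without KFs replicate 3, and 3 of these genes were then called higher in tail. In that fit 18.3% of all genes were called in either direction in tail, against 16.5% with all libraries.

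The counts of further lists are to be read against the same shares of all genes, 18.3% higher and 9.33% lower in heart, 14.7% and 7.99% in kidney and 11% and 5.53% in tail. Without KFs replicate 3 the shares called in either direction were 29.0%, 23.2% and 18.3%, in place of 27.7%, 22.6% and 16.5%. Of 10 collagen genes whose proteins these proteoglycans bind, 6 were called higher in heart, 7 in kidney and 3 in tail, with 1 lower, in tail. Col3a1, a chain of the collagen III of thin fibrils, rose by 3.0 ± 0.47 on the log2 scale in heart (from 5626 ± 420 to 44990 ± 9603 CPM, SD, n = 3; edgeR adjusted p = 7.12e-05), 2.80 ± 0.47 in kidney (adjusted p = 0.000168) and 3.03 ± 0.47 in tail (adjusted p = 0.000146). Col6a3, a chain of the beaded collagen VI filaments, rose by 4.05 ± 0.42 in heart (adjusted p = 1.09e-06) and 2.42 ± 0.39 in tail (adjusted p = 0.000171), and Col12a1, whose product decorates fibril surfaces, fell by 1.23 ± 0.41 in tail (adjusted p = 0.0281). The median over the 10 genes was 1.70, 2.07 and 0.85. In the fit without KFs replicate 3, 7 were called higher in heart and 8 in kidney, with a kidney median of 2.44.

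Of 13 genes of proteases that cut these proteins, 11 were tested, and 7, 5 and 6 were called higher in heart, kidney and tail and 3, 2 and 0 lower. The median of those tested was 1.74, 0.96 and 1.29. In kidney 6 were called higher and 3 lower without KFs replicate 3, with a median of 1.25. Mmp3, which encodes stromelysin-1, rose by 6.20 ± 1.00 on the log2 scale in heart (from 10.3 ± 2.10 to 753 ± 432 CPM; edgeR adjusted p = 8.43e-05) and by 8.45 ± 1.10 in tail (from 11.2 ± 1.48 to 3911 ± 1242 CPM; adjusted p = 2.79e-05). Adamts4, an aggrecanase that also cuts decorin, rose by 2.40 ± 0.30 in kidney (adjusted p = 1.15e-05), while Adamts5 fell by 2.01 ± 0.22 in kidney (adjusted p = 3.79e-06). Tll1, a relative of the procollagen C-proteinase Bmp1, fell in heart (by 1.2 ± 0.15, adjusted p = 1.06e-05) and in kidney (by 2.06 ± 0.15, adjusted p = 6.35e-08).

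The genes that build the glycosaminoglycan chains formed 3 lists, read against the shares of all genes given for the collagens. Of 7 enzymes of the common linker, 1 was called in heart and in kidney, and in tail edgeR called 0, with 4 at an unadjusted p under 0.05 (DESeq2 was not applied to the lists). The called gene, Pxylp1, encodes a xylose phosphatase and rose by 1.70 ± 0.15 on the log2 scale in heart (edgeR adjusted p = 3.09e-07) and 1.30 ± 0.15 in kidney (adjusted p = 5.83e-06). Of 16 chondroitin and dermatan sulfate enzymes, 4 were called higher and 2 lower in heart, 1 and 1 in kidney, and 2 and 1 in tail (2 and 1 in kidney and 2 and 2 in tail without KFs replicate 3). The sulfotransferase gene Chst11 rose in heart (2.21 ± 0.26, adjusted p = 4.17e-06) and kidney (1.25 ± 0.25, adjusted p = 0.000691), Chst15 rose in heart (2.52 ± 0.23, adjusted p = 3.03e-07) and tail (2.37 ± 0.22, adjusted p = 1.16e-06), and Chst7 fell in all 3, by 1.80 ± 0.24, 1.87 ± 0.28 and 1.28 ± 0.24. Of 8 keratan sulfate enzymes, 7 were tested, with 2 called higher and 1 lower in heart, 1 and 1 in kidney, and 0 in tail by edgeR, where 1 had an unadjusted p under 0.05. The medians of these 3 lists lay between -0.42 and 0.41.

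Of 15 receptors and growth factors that these proteoglycans bind, 6 were called higher and 2 lower in heart, 1 and 2 in kidney and 4 and 1 in tail. In kidney, where 22.6% of all genes were called in either direction, this was a share near that of all genes. Their medians were 0.09, -0.30 and 0.15. Tgfb2 fell in heart (by 1.77 ± 0.14 on the log2 scale, edgeR adjusted p = 7.87e-08) and kidney (by 1.16 ± 0.14, adjusted p = 6.13e-06), Tgfb3 in kidney (by 1.45 ± 0.29, adjusted p = 0.000760) and tail (by 1.87 ± 0.29, adjusted p = 0.000154), and Igf1r, a receptor that decorin binds, in heart (by 2.07 ± 0.16, adjusted p = 9.29e-08). Egfr, another decorin receptor, rose in tail by 2.16 ± 0.09 (adjusted p = 9.56e-10). In kidney none of these 15 was called higher and 5 lower without KFs replicate 3, with a median of -0.49. Of 17 other matrix proteoglycans, 16 were tested, with 8 called higher and 1 lower in heart, 6 and 4 in kidney and 3 and 1 in tail, and medians of 1.32, 0.04 and -0.07. In kidney 4 were called higher and 4 lower without KFs replicate 3, with a median of 0.27. Prg4, which encodes the joint lubricant lubricin, rose by 8.44 ± 0.79 in heart (from 4.58 ± 0.267 to 1599.9 ± 538 CPM; edgeR adjusted p = 4.19e-07) and 3.64 ± 0.65 in kidney (adjusted p = 0.000300).

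All 4 myofibroblast markers, contractile genes of the fibroblast state that culture promotes, fell in all 3 organs. They summed to 3024 to 3106 CPM in HFc and 514 to 1097 in HFs, 7070 to 7185 in KFc and 964 to 2091 in KFs, and 1583 to 1648 in TFc and 195 to 437 in TFs. The 8 cartilage, tendon and bone markers summed to 355 to 374 CPM in HFc, 56.3 to 59.5 in KFc and 180 to 185 in TFc, and to 216 to 249, 92.8 to 139 and 121 to 128 in HFs, KFs and TFs.

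Across the 18 libraries the members did not form a single pattern. Pearson's r of log2(CPM + 1) between pairs of members ran from -0.17 to 0.93, with a median of 0.49 over 36 pairs. It was 0.93 between Lum and Ogn, 0.87 between Aspn and Ogn, 0.85 between Dcn and Lum and 0.84 between Fmod and Prelp, and -0.17 between Dcn and Prelp. The libraries share their groups, so these values are given as a description. The genes most like Dcn over all genes tested were Tril, Ndrg2 and Dram1 (r of 0.97, 0.97 and 0.96). C1ra, Dsel and Lrp4 were most like Lum (0.98, 0.97 and 0.97), of which Dsel encodes an epimerase that makes dermatan sulfate. Maml2, Ccn5 and Parp3 were most like Prelp (0.98, 0.98 and 0.95), and Rxra, Fgfr2 and Arsk most like Fmod (0.97, 0.95 and 0.95). Marcks, Cpz and 2510009E07Rik were closest to Aspn (0.96, 0.94 and 0.93), Olfml3, Wfikkn2 and Mmp19 to Ogn (0.95, 0.94 and 0.94), and Selenop, Dpep1 and Clec3b to Podn (0.96, 0.96 and 0.91). For Bgn they were Zfp652, Wipi1 and Hspg2 (0.93, 0.92 and 0.92), and for Omd, with few counts, Plscr4, Maob and Braf (0.87, 0.86 and 0.86). Of these 27 genes, 7 were also among the 3 most like their member by Spearman's rho.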

How the data were processed

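RNA of transplanted and cultured heart, kidney and tail fibroblasts was measured in 18 libraries, grouped by sample title. The authors made stranded total-RNA libraries, sequenced single-end reads of 75 bases, trimmed them, aligned them with Bowtie2 within RSEM (strand-specific) and deposited expected counts per gene, unnormalized, as whole numbers. The paper names GRCm38 and the submitters' processing notes mm9; positions here are from GENCODE M21 on GRCm38, which held 37607 of the identifiers. From these counts edgeR 4.0.16 under R 4.3.3 estimated a mean for each group in a single fit of the 18 libraries, after filterByExpr and TMM scaling, and its quasi-likelihood test (glmQLFTest) was adjusted over 16577 genes. SE is the log2 fold change divided by the square root of F. The biological coefficient of variation was 0.24. On simulated data for HFs against HFc (16215 genes), 59 of 100 genes changed 2-fold and 93 of 100 changed 4-fold were found, with 9 false calls. These were counted at an adjusted p under 0.05 without the fold-change limit, which the reported calls after transplantation also had to pass. The simulation gave each gene the spread typical of its level, had no outlying library and changed only genes above a minimum mean count. Its rates therefore need not hold for the members. Alternatives were DESeq2 1.42.0, its size factors, library size alone, other filters and thresholds, thinning, a replicate block, only the groups compared, and each library left out. The members and lists were chosen with earlier results of these data known. Named were all members, at most 2 rises and 2 falls per list and comparison among non-overlapping calls, and per member the 3 genes with the highest r. Optc, Cenpp, Scp2 and the kidney calls of neighbours were named after their values were seen.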

Additional observations from a re-analysis of the deposited data

Results flagged for a closer look

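The change after transplantation differed between organs, for 2 members, in the interaction contrast of edgeR (p adjusted by Benjamini-Hochberg across the 16577 genes). Of all genes, 11.1% were called for kidney against tail and 26.2% for heart against kidney. The calls of 1 and 2 of the 9 members in these comparisons were near those shares. For heart against tail 22.8% of all genes were called, and no member. Prelp fell in all 3 organs, although its tail call was lost with the replicate block (adjusted p = 0.0510), with DESeq2 (adjusted p = 0.0556) and on leaving out any 1 of the 6 tail libraries. It fell further in kidney than in tail fibroblasts, with a difference of -4.33 ± 0.67 on the log2 scale (kidney minus tail, adjusted p = 0.000832), and further in kidney than in heart fibroblasts, with a difference of 3.66 ± 0.66 (heart minus kidney, adjusted p = 0.000991). Leaving out KFs replicate 3 gave -3.95 ± 0.53 and 3.32 ± 0.53, and the tail call of Prelp was kept (edgeR adjusted p = 0.00460). Podn differed by 2.92 ± 0.68 (heart minus kidney, adjusted p = 0.00557), and by 2.58 ± 0.59 without KFs replicate 3. Within heart it rose in all 3 libraries, and within kidney 1 library lay above and 2 below the cultured mean. No group had enough libraries for a test of single outlying samples.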

How the results depend on the processing

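Of the members' fold changes recomputed under other settings, 1760 kept direction and side of the threshold, 82 lost a call, 61 gained one and 36, none of them called in the reported fit, changed sign. The cause of these changes was not tested. The number of members called moved by more than 1.5 times as follows, and by less elsewhere. At an adjusted p of 0.01 it was 3 for KFs against KFc, 2 for TFs against TFc, 2 for HFc against TFc, 3 for KFc against TFc and 0 for HFs against TFs, where it was also 0 with a log2 fold change limit of 1 and 2 with library size alone. The share of all genes called at 0.01 was 17.6%, 11.9%, 29.9%, 23.2% and 13.5%, in place of 22.6%, 16.5%, 41.9%, 36.4% and 23.1%. For HFs against TFs that share was 10.4% with the fold change limit and 34.5% with library size alone. With only the groups compared, the number of members was 3 for KFs against KFc, 8 for HFc against TFc, 6 for HFc against KFc, 4 for HFs against TFs, 1 for KFs against TFs and for HFs against KFs, and 7 for the response of heart against tail. In the same order, 18.6%, 62.4%, 51.0%, 24.9%, 7.47%, 5.75% and 35.5% of all genes were called. With DESeq2 it was 3 for TFs against TFc, 1 for the response of heart against tail and 3 for that of kidney against tail. In the same order, DESeq2 called 2948 of 16465, 4440 of 16143 and 2602 of 16143 genes. Without KFs replicate 3, where that library is not compared, the number of members was 5 for HFc against KFc, for HFs against TFs and for the response of heart against tail (36.3%, 31.0% and 32.3% of all genes).

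With 1 library of a comparison left out in turn, the number called, where it moved as much, ranged from 2 to 3 for TFs against TFc and for HFc against TFc, 0 to 1 for HFs against TFs, 3 to 8 for KFs against TFs, 5 to 9 for HFs against KFs, 1 to 4 for the response of kidney against tail and 2 to 5 for that of heart against kidney. In the same order, the share of all genes called ranged from 13.8% to 14.4%, 34.3% to 35.1%, 16.2% to 18.5% and 18.7% to 35.1%. For the last 3 comparisons it ranged from 24.3% to 38.8%, 7.03% to 21.4% and 19.2% to 35.2%. The fold changes that changed sign in these runs ranged, on the log2 scale, as follows. In HFs against HFc, Fmod ranged from -0.33 to 0.10 and Omd from -0.39 to 0.10. In KFs against KFc, Bgn ranged from -0.53 to 0.07, Aspn from -0.38 to 2.15 and Podn from -1.25, where it was called, to 0.07. Bgn ranged from -0.04 to 0.04 in TFs against TFc and from -0.63 to 0.01 in KFs against TFs. Podn ranged from -0.18 to 0.05 in HFc against TFc, -0.10 to 0.18 in KFc against TFc and -0.18 to 0.02 in HFc against KFc. Aspn ranged from -2.38 to 0.19 in KFs against TFs and from -0.75 to 1.80 in HFs against KFs. In the response of kidney against tail, Aspn ranged from -1.70 to 0.84, Ogn from -0.71 to 1.21, Fmod from -2.55 to 0.13 and Bgn from -0.53 to 0.08, and in that of heart against kidney, Lum from -0.83 to 1.81 and Dcn from -0.23 to 0.78. Bgn in TFs against TFc was -0.00053 with a mean of at least 10 counts and -0.01 without KFs replicate 3, and Podn in KFc against TFc was -0.04 with library size alone and when thinned to the smallest library. Scaling by library size alone moved the median of all genes to -0.25 in HFs against TFs.

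The replicate numbers are shared between groups, but nothing in the labels says that they mark an animal or day, and same-numbered libraries did not deviate together (correlations of -0.139 to 0.0792). With the replicate block, 3 members were called for TFs against TFc and 4 for KFs against KFc (15.8% and 21.7% of all genes). Under the block Aspn was 0.07 in HFs against KFs and -0.07 in the response of kidney against tail, and Lum was 0.14 in that of heart against kidney. Between HFs and HFc the block left 4504 genes called in place of 4585, of which 4445 were shared. Depth limits Omd throughout and Lum in HFc and KFc.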
